A study of Mus musculus with 6 samples.

Results

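Angiopoietins are secreted ligands of the receptor tyrosine kinase Tie2 (*Tek*), which together with the related receptor Tie1 maintains blood vessels. The angiopoietin-like proteins share the domain structure of the angiopoietins but, in the main, do not bind Tie2. The 10 genes described here are the angiopoietin ligands *Angpt1*, *Angpt2* and *Angpt4*, the receptors *Tek* and *Tie1*, and the angiopoietin-like genes *Angptl1*, *Angptl2*, *Angptl4*, *Angptl6* and *Angptl7*. They were selected by gene symbol from the deposited table, and all 10 were among its 29616 genes.

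The study asked whether glucocorticoids drive osteoblast-lineage cells toward an endothelial character. RNA was sequenced from bone cells of C57BL/6 mice in 3 control libraries and 3 libraries of mice treated with dexamethasone, a synthetic glucocorticoid, and the submitters call the libraries of each group biological replicates. In the study's methods the mice were 8 weeks old at the start and the daily dose was 0.08 µg per g body weight, given over 4 weeks. For sequencing, Osteocalcin-positive cells were isolated from bones after removal of the marrow. No transgene or deletion is named for these mice, controls of the mouse model received saline, and whether a library held cells of 1 mouse or of several is not given, so p-values measure the spread between these libraries. Each library held 72596611 to 89910728 reads assigned to genes. No library was left out of the results.

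The values are normalized counts, that is, reads per gene divided by a size factor for the library, and 1 read was worth 0.879 to 1.16 normalized counts. Values were raised by 1, converted to log2 and tested with limma, which estimates the error of each gene with the help of all genes, for the 17442 genes that averaged 10 normalized counts or more over the 6 libraries. A gene is said to have risen or fallen where its Benjamini-Hochberg adjusted p-value was under 0.05 and its log2 fold change was at least 1 in either direction. Both limits follow the study's methods. Of all tested genes, 22.3% passed both limits, 11.7% upward and 10.6% downward. The limit on the adjusted p-value was passed by 72.5% of the tested genes (37.2% higher, 35.2% lower). Fold changes are given as log2FC, dexamethasone minus control, with their standard error (SE), and values listed per library are in the order of replicates 1, 2 and 3. In RNA from many cells, fewer cells of a type and less RNA per cell cannot be told apart.

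The identity of the cells was checked with marker genes. Osterix (*Sp7*), a transcription factor of osteoblasts, had 7655 ± 404 (SD, n = 3) normalized counts in control and 2102 ± 133 (SD, n = 3) in dexamethasone libraries, whereas Osteocalcin (*Bglap*), the protein used for sorting, had only 107 ± 12.9 (SD, n = 3) and 12.2 ± 2.80 (SD, n = 3), and its near-identical copies make this count uncertain. Of 10 osteoblast markers, all tested, 6 fell (background 10.6%) and 2 rose (background 11.7%). The risers were the matrix phosphoprotein genes *Spp1* (33595 ± 988 in control and 1279670 ± 29570.5 in dexamethasone libraries, SD, n = 3) and *Dmp1* (38.5 ± 2.66 and 5639 ± 326, SD, n = 3). Markers of other cell types ranged from undetected to abundant. VE-cadherin (*Cdh5*), an endothelial marker, had at most 3 reads in every library, the adipocyte gene *Adipoq* 1 to 9 reads and the platelet gene *Pf4* 0 to 4 reads. *Ptprc*, the pan-leukocyte gene, had 1.76 to 5.81 normalized counts over the 6 libraries. The endothelial gene *Pecam1* had 10.1 to 19.3 in control and 20.9 to 29.6 in dexamethasone libraries (log2FC = 0.74, limma adjusted p = 0.0419). The smooth muscle actin gene *Acta2* (144918 ± 3876 in control libraries, SD, n = 3) and the VEGF receptor gene *Flt1* (4371 ± 67.7, SD, n = 3) were abundant. So was the tendon and cartilage marker *Fmod* (172898 ± 6490 in control libraries, SD, n = 3). Of 16 endothelial markers, 13 were in the table and 8 could be tested, of which 2 rose (background 11.7%) and 0 fell (background 10.6%). By adjusted p-value alone 6 of the 8 were higher (background 37.2%) and 0 lower (background 35.2%). Among the untested endothelial markers *Sox18* went the other way, with 7, 7 and 11 reads in control and 0, 3 and 2 in dexamethasone libraries. *Erg* and *Robo4* had at most 5 reads in every library.

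Dexamethasone libraries had more *Angptl2* and *Angpt2* and less *Angptl6* than control libraries. *Angptl2* was 2.55-fold, *Angpt2* 2.93-fold and, in the other direction, *Angptl6* 2.56-fold apart in mean normalized counts. *Angpt4* was 1.74-fold higher, with an adjusted p-value under 0.05 but a fold change short of the limit. *Tek*, *Angptl4* and *Angptl7* were tested and did not pass the limit on the adjusted p-value, and *Angpt1*, *Tie1* and *Angptl1* had too few reads to be tested. Of the 10 genes 7 could therefore be tested, 2 of which rose (background 11.7%) and 1 fell (background 10.6%). By adjusted p-value alone 3 were higher (background 37.2%) and 1 lower (background 35.2%). For 4 of these 7 genes the values of the 2 groups did not overlap, where this held for 74.7% of all tested genes.

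**Figure D1:**
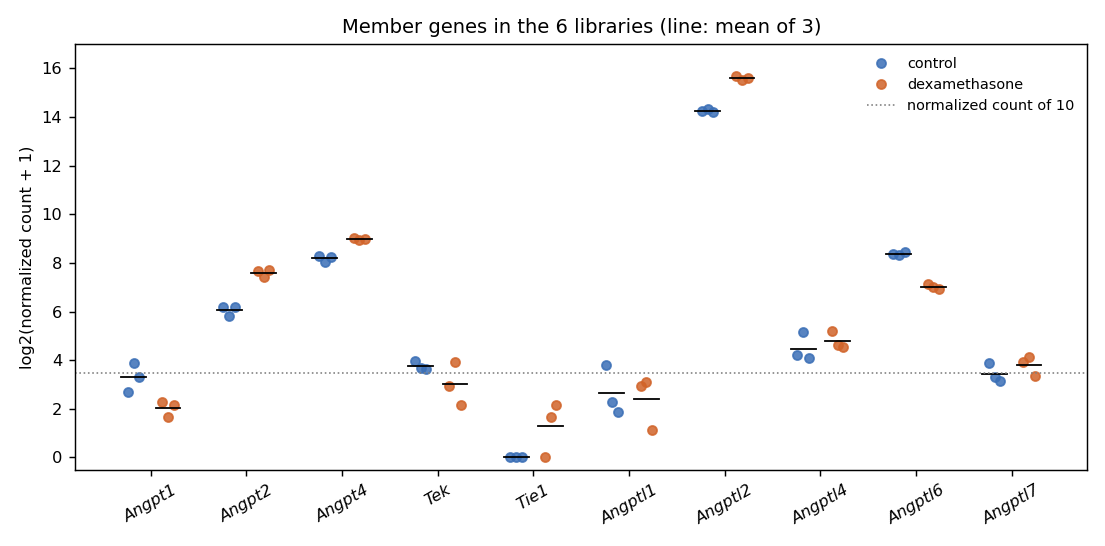
Normalized counts of the 10 genes in each library, as log2(normalized count + 1) on the vertical axis, with 3 control and 3 dexamethasone points and a line at each mean. The dotted line marks 10 normalized counts. *Angptl2* stands far above the others, and the 2 groups separate fully for *Angpt1*, *Angpt2*, *Angpt4*, *Angptl2* and *Angptl6*.

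Promoter sequences are shown for *Angptl2* and *Angpt4*, which were higher with dexamethasone, and for *Angptl6*, which was lower. They are RefSeq sequences of the older build GRCm38.p6, not the GRCm39 build of the submitters' processing notes, and run from 250 bases before to 50 bases after the annotated start. Such a sequence was found for 7 of the 10 genes, and none for *Angpt1*, *Angpt2* and *Angptl4*, whose promoters were not searched. Capitals mark matches on either strand to the palindromic glucocorticoid response element (GNACA and TGTNC with 3 bases between), to its single arm AGAACA or to the TATA box TATAAA.

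Angptl2 promoter, GRCm38.p6 chr2:33215711-33216010, plus strand: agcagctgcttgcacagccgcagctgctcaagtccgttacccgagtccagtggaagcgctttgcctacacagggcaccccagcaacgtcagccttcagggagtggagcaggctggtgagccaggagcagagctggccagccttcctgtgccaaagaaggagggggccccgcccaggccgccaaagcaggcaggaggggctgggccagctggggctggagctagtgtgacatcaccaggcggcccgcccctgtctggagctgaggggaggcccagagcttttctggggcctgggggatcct
Angpt4 promoter, GRCm38.p6 chr2:151910957-151911256, plus strand: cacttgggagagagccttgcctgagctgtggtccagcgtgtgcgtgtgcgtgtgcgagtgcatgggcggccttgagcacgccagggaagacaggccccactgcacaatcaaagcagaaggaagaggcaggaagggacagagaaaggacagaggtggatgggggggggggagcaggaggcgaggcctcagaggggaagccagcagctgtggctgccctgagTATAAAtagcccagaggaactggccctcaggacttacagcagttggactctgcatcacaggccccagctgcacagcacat
Angptl6 promoter, GRCm38.p6 chr9:20879661-20879960, minus strand: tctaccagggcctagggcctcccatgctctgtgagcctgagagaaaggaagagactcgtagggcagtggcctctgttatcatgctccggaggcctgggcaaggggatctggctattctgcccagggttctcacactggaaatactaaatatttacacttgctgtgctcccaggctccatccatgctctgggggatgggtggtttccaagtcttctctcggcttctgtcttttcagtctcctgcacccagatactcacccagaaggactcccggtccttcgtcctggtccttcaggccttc

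No copy of the palindrome lay in any of the 7 promoters, and among all 32851 promoters of this length 0.475% held one. The single arm was found in the *Tek* promoter alone, and in 19.0% of all promoters. *Angpt4* had a TATA box 30 bases before its start, the only one among the 7, and 13.6% of all promoters had such a match. *Angptl2* and *Angptl6* had no match to any of these letters. The promoter of *Angptl2* had a GC content of 66.7%, that of *Angpt4* 61.3% and that of *Angptl6* 55.7%. A match is a run of letters only, and its absence from this window says nothing about binding elsewhere.

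Among the ligands, *Angpt1* on chromosome 15 encodes the agonist that activates Tie2. It had 6, 14 and 10 reads in control libraries and 4, 2 and 3 reads in dexamethasone libraries. Every dexamethasone library lay below every control library, but the mean of 6.25 normalized counts over the 6 libraries was under the limit for testing. When genes with a mean of at least 1 were admitted, its log2FC was -1.26 (SE = 0.512, limma adjusted p = 0.0411), and without any filter the adjusted p was 0.0489. In the GENCODE M21 annotation a gene on the opposite strand overlaps 14.2% of its exon bases.

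*Angpt2* encodes a ligand that, depending on the context, blocks or weakly activates Tie2 and is linked to vessel remodelling. It had 71.6, 54.8 and 71.2 normalized counts in control libraries, and 199, 170.0 and 210.5 in dexamethasone libraries. Every dexamethasone value lay well above the highest control value. The difference was clear of the replicate spread (log2FC = 1.54, SE = 0.149, limma adjusted p = 1.29e-09), and the omission of any single library gave 1.42 to 1.63.

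*Angpt4*, the mouse counterpart of a further Tie2 ligand, is encoded on chromosome 2. Its normalized counts were 311, 265 and 301.4 in control libraries, against 524, 493 and 508 in dexamethasone libraries. The groups were well apart, with log2FC = 0.80 (SE = 0.0827, limma adjusted p = 4.78e-09), and the 95% interval of 0.63 to 0.97 lay below the limit of 1.

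Levels of different genes were compared per kilobase of exon, with exon lengths from GENCODE M21. On this scale *Angpt4* was the leading ligand in all 6 libraries, at 125 ± 10.4 (SD, n = 3) normalized counts per kilobase in control and 218 ± 6.64 (SD, n = 3) in dexamethasone libraries. *Angpt2* reached 17.8 ± 2.60 (SD, n = 3) and 52.4 ± 5.66 (SD, n = 3). Its share of the 3 ligands was 12.6%, 11.3% and 12.9% in control libraries, and 19.4%, 17.9% and 20.7% in dexamethasone libraries. The share of *Angpt1* was 0.688% to 2.01% in control and 0.163% to 0.263% in dexamethasone libraries. The agonist was thus the scarcest of the 3 ligands in every library, and the remainder was *Angpt4*.

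**Figure D2:**
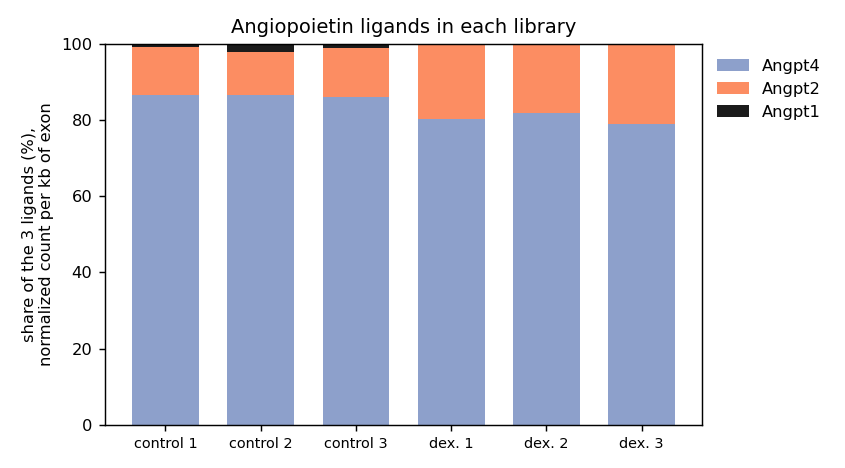
Share of *Angpt4*, *Angpt2* and *Angpt1* in each library, in percent of their summed normalized counts per kilobase of exon, with 1 stacked bar per library. *Angpt4* made up 79.0% to 86.7%, and the *Angpt2* share was larger in each dexamethasone library (17.9% to 20.7%) than in each control library (11.3% to 12.9%).

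The receptors were scarce. *Tek*, which encodes Tie2 and lies on chromosome 4 as does *Tie1*, had 16, 12 and 13 reads in control libraries and 7, 13 and 3 reads in dexamethasone libraries. One dexamethasone library lay within the control range, and the other two lay below it. The log2FC of -0.75 (95% interval -1.70 to 0.20, limma adjusted p = 0.146) was not distinguishable from 0 at this depth, and it was -0.33 without dexamethasone replicate 3. *Tie1*, the orphan receptor that modulates Tie2, had 0 reads in all control libraries and 0, 2 and 3 reads in dexamethasone libraries. A count of 0 allows up to 3 reads, so *Tie1* was at the limit of detection in both groups and no difference was detectable, and this limit covers counting error only.

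*Angptl2*, a secreted protein linked to inflammation and tissue remodelling, was by far the most abundant of the 10 genes. Its normalized counts were 19250, 20495 and 18864 in control libraries, and 52700, 47555 and 49126 in dexamethasone libraries. The lowest dexamethasone value lay far above the highest control value. The difference was clear of the replicate spread (log2FC = 1.35, SE = 0.0417, limma adjusted p = 1.53e-19), with a 95% interval of 1.26 to 1.44. *Angptl2* made up 96.1% to 96.6% of the normalized counts of the 10 genes in control and 98.2% to 98.3% in dexamethasone libraries. Per kilobase of exon its mean over the 6 libraries ranked 514 among 16961 tested genes with a known length.

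*Angptl6* on chromosome 9, also called angiopoietin-related growth factor, went the other way. It had 327, 319 and 349 normalized counts in control libraries, but 138, 129 and 121 in dexamethasone libraries. Every dexamethasone value lay far below the lowest control value. Its log2FC was -1.35 (SE = 0.105, limma adjusted p = 2.22e-11), with a 95% interval of -1.57 to -1.14. *A230050P20Rik*, a gene on the opposite strand, overlaps 16.8% of the exon bases of *Angptl6* and had 23, 12 and 7 reads in control and 0, 1 and 2 reads in dexamethasone libraries. The strand setting of the count is not given, so reads of this gene cannot be told apart from those of *Angptl6* in the overlap. Its count was far below that of *Angptl6* in every library.

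*Angptl4*, an inhibitor of lipoprotein lipase that glucocorticoids, PPAR nuclear receptors and hypoxia are known to induce in other tissues, lies on chromosome 17 and was low in both groups. It had 17.4, 34.2 and 15.8 normalized counts in control libraries and 35.3, 24.0 and 22.1 in dexamethasone libraries. The groups overlapped, since control replicate 2 was nearly as high as the highest dexamethasone library. The log2 fold change was 0.31 (95% interval -0.34 to 0.97, limma adjusted p = 0.384), and it was 0.65 without control replicate 2 and 0.11 without control replicate 3 or dexamethasone replicate 1.

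*Angptl7*, known as a glucocorticoid-inducible gene of the eye's outflow tissue, had 15, 9 and 9 reads in control libraries and 15, 15 and 8 reads in dexamethasone libraries. In normalized counts its ranges overlapped in part, at 7.91 to 13.8 in control and 9.30 to 16.4 in dexamethasone libraries. The log2FC of *Angptl7* was 0.36 (95% interval -0.46 to 1.18, limma adjusted p = 0.423). *Angptl1*, an antiangiogenic member, had 14, 4 and 3 reads in control and 7, 7 and 1 reads in dexamethasone libraries, and was not tested. With genes of a mean of at least 1 admitted, the log2 fold change of *Angptl1* was -0.26 (limma adjusted p = 0.750). *Gm37802*, a gene on the opposite strand, overlaps 16.4% of the exon bases of *Angptl1*. It had 5, 7 and 6 reads in control and 4, 4 and 2 reads in dexamethasone libraries, a level like that of *Angptl1*. Without the strand setting, reads of *Gm37802* and *Angptl1* cannot be told apart in the overlap.

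**Figure D3:**
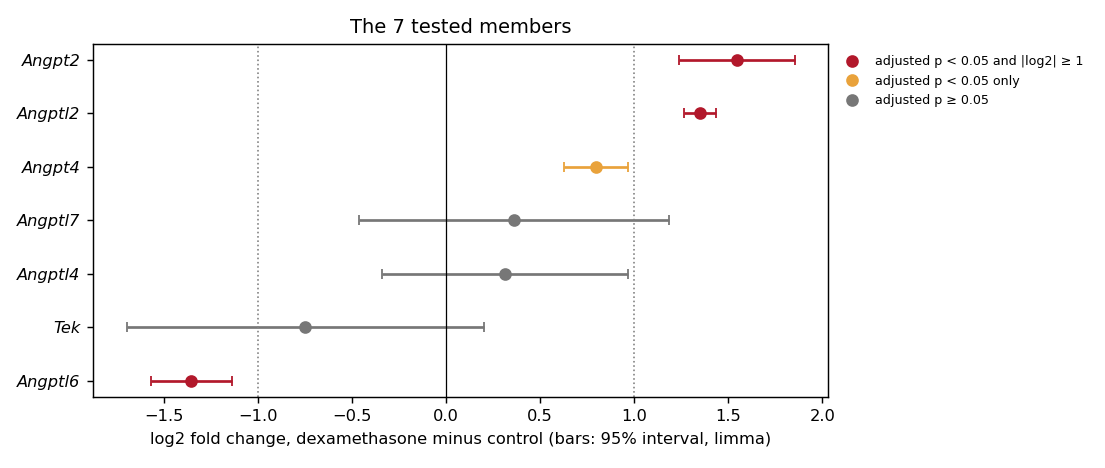
Log2 fold change of the 7 tested genes, dexamethasone minus control, on the horizontal axis with the 95% interval from limma. Dotted lines mark the limit of 1 in either direction. *Angpt2* (1.54) and *Angptl2* (1.35) lie above it and *Angptl6* (-1.35) below it, *Angpt4* (0.80) falls short, and the intervals of *Angptl4*, *Angptl7* and *Tek* include 0.

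Ordered by mean normalized count per kilobase, control libraries ran from *Angptl2* (3108 ± 136, SD, n = 3) through *Angptl6* (210 ± 9.79, SD, n = 3), *Angpt4* and *Angpt2* to *Angptl4*, *Angptl7*, *Tek*, *Angptl1*, *Angpt1* and *Tie1*. In dexamethasone libraries *Angptl2* reached 7921 ± 419 (SD, n = 3), and *Angpt4* stood above *Angptl6* (81.7 ± 5.51, SD, n = 3), so that these genes had exchanged places. The first 4 genes had ranges that did not touch in either group. Below them several ranges overlapped, such as those of *Angptl4* and *Angptl7*, of *Tek* and *Angptl1*, and of *Angptl1* and *Angpt1*, each in both groups. The range of *Angpt1* also overlapped that of *Tek* in the controls and that of *Tie1* with dexamethasone.

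In the GENCODE M21 annotation 4 of the 10 genes lie within the span of a larger gene on the opposite strand. *Angpt2* lies in *Mcph1* on chromosome 8, *Angptl2* in *Ralgps1* on chromosome 2, *Angptl1* in *Ralgps2* on chromosome 1 and *Angptl7* in *Mtor* on chromosome 4. No exon base of any of the 4 is shared with an exon of its host. The libraries were made with a stranded kit, but the strand setting of the count is not given, so the host genes were examined beside the nested ones.

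*Mcph1*, a gene of chromosome condensation and DNA damage signalling, rose to 3830 ± 182 (SD, n = 3) against 1732 ± 8.76 (SD, n = 3) normalized counts in control libraries (log2FC = 1.14, limma adjusted p = 8.58e-18). After quantile normalization its log2FC was 0.9995, just short of the limit. *Angpt2* thus moved in the direction of its host, and it equalled 3.15% to 4.14% of the *Mcph1* count in control and 4.51% to 5.71% in dexamethasone libraries. The part of unspliced *Mcph1* reads in the count of *Angpt2* was not tested. *Ralgps1*, a guanine nucleotide exchange factor, had 1006 ± 46.7 (SD, n = 3) and 517 ± 21.3 (SD, n = 3) normalized counts (log2FC = -0.96, limma adjusted p = 8.41e-13), opposite in sign to *Angptl2*. Its log2FC passed the limit with every library scaled to an equal sum, called the same total here (-1.07) and after quantile normalization (-1.02).

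The other hosts were abundant while the genes nested in them were not. *Ralgps2* had 1550 ± 8.22 (SD, n = 3) and 2952 ± 94.9 (SD, n = 3) normalized counts, with log2FC = 0.93 (limma adjusted p = 6.69e-16). *Angptl1* stayed at 0.0400% to 0.827% of its count. *Mtor*, the kinase of nutrient signalling, had 4424 ± 129 (SD, n = 3) and 5390 ± 233 (SD, n = 3), with log2FC = 0.28 (limma adjusted p = 6.37e-07). *Angptl7* equalled 0.175% to 0.322% of it.

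**Figure D4:**
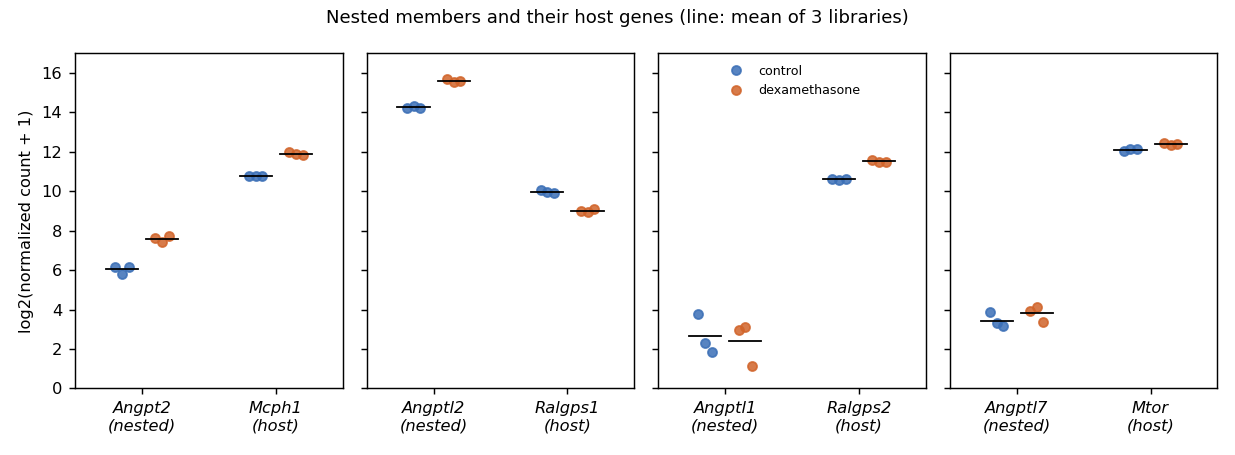
Nested genes and their host genes in each library, as log2(normalized count + 1), in 4 panels with 3 control and 3 dexamethasone points per gene and a line at each mean. *Angpt2* and *Mcph1* are both higher with dexamethasone, *Angptl2* is higher while *Ralgps1* is lower, and *Angptl1* and *Angptl7* are low although *Ralgps2* and *Mtor* are abundant.

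The proteins around the Tie receptors, from a list of 21 partners, adaptors, effectors and integrins, changed in both directions. Of the 20 tested, 3 rose (15%, background 11.7%) and 5 fell (25%, background 10.6%). Their median log2 fold change was 0.10 against 0.00071 for all tested genes. *Svep1*, an extracellular matrix protein that binds Tie1, fell to 2487 ± 199 (SD, n = 3) against 15793 ± 167 (SD, n = 3) normalized counts in control libraries, log2FC = -2.67 (limma adjusted p = 4.16e-25). *Ptprb*, the phosphatase VE-PTP that silences Tie2, fell to 217 ± 15.5 (SD, n = 3) against 518 ± 69.2 (SD, n = 3) in control libraries, log2FC = -1.25 (limma adjusted p = 1.92e-11). The membrane metalloproteinase gene *Mmp14* fell as well, with log2FC = -1.24 (limma adjusted p = 1.11e-17).

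The adaptor gene *Dok2* and the endothelial nitric oxide synthase gene *Nos3* completed the decreases, at low levels and close to the limit. *Dok2* had log2FC = -1.02 (limma adjusted p = 0.00092), which was -0.85 without control replicate 3 and -0.91 without dexamethasone replicate 1, with a pseudocount of 5 and after quantile normalization. For *Nos3* it was -1.17 (limma adjusted p = 0.00111), and -0.99 without control replicate 1 and -0.83 without dexamethasone replicate 3.

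Integrins that bind angiopoietins or angiopoietin-like proteins on cells without Tie2 were abundant. The alpha 5 subunit *Itga5*, a known receptor subunit for Angptl2, rose to 53791 ± 2789 (SD, n = 3) against 10563 ± 259 (SD, n = 3) normalized counts in control libraries, log2FC = 2.35 (limma adjusted p = 4.71e-25). Its partner *Itgb1* had log2FC = 0.11 (limma adjusted p = 0.0199), but 0.00060 (adjusted p = 0.986) at the same total, and the adjusted p was 0.134 with the replicate block. *Itgav* had 0.05 (limma adjusted p = 0.236), which was -0.07 at the same total and -0.02 after quantile normalization. *Itgb3* rose by 1.85 on the log2 scale (limma adjusted p = 5.07e-22) and *Rasa1*, a GTPase-activating protein for Ras, by 2.02 (limma adjusted p = 3.93e-25). *Foxo1*, which raises *Angpt2* in endothelial cells when Tie2 is silent, had 1519 ± 26.6 (SD, n = 3) and 1461 ± 83.0 (SD, n = 3) normalized counts, with log2FC = -0.06 (limma adjusted p = 0.306).

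**Figure D5:**
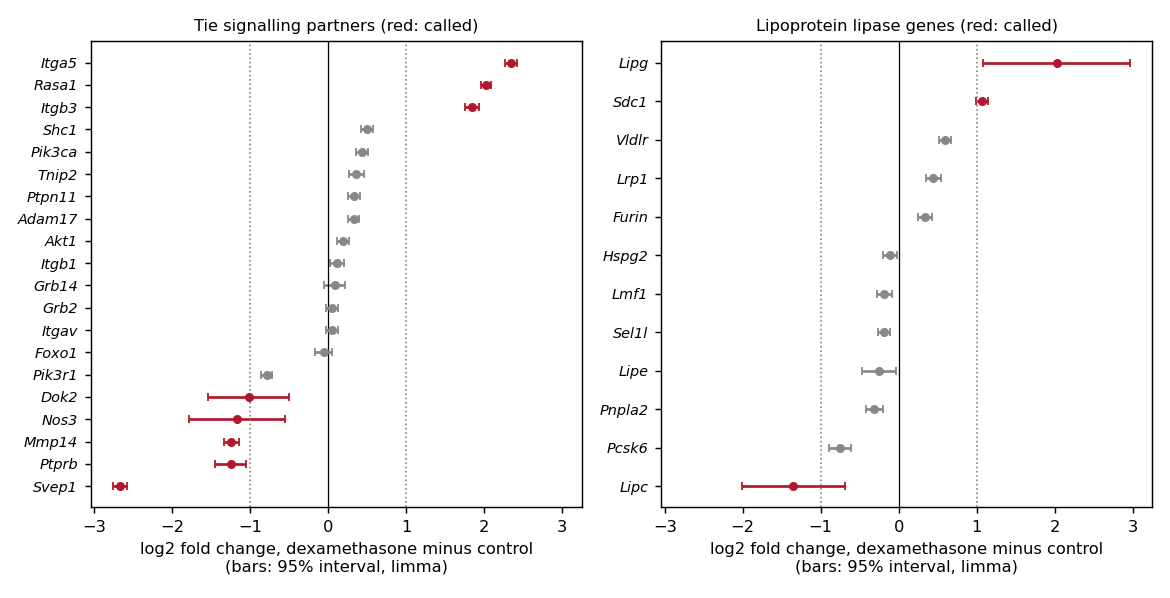
Log2 fold change, dexamethasone minus control, with the 95% interval from limma, for the 20 tested Tie signalling partners (left) and the 12 tested genes around lipoprotein lipase (right). Red marks genes past both limits, of which *Svep1* (-2.67) and *Itga5* (2.35) are the extremes on the left, and *Lipg* (2.03) and *Lipc* (-1.35) on the right. *Lipg* had few control reads and was tested only because of its dexamethasone values.

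Around *Angptl4* there was little of its enzyme target. Lipoprotein lipase (*Lpl*) had 0, 2 and 3 reads in control libraries and 4, 0 and 0 reads in dexamethasone libraries. Of 16 genes listed for this lipase, its anchors, relatives and convertases, 12 were tested. Of these 2 rose (16.7%, background 11.7%) and 1 fell (8.33%, background 10.6%), and the median log2 fold change of the 12 was -0.15. The endothelial lipase gene *Lipg* rose to 18.8 ± 4.95 (SD, n = 3) against 4.08 ± 2.40 (SD, n = 3) normalized counts in control libraries (log2 fold change 2.03, limma adjusted p = 0.000337). It had only 3, 7 and 3 control reads. Its mean of 11.4 over the 6 libraries reached the limit for testing only through the dexamethasone libraries, so its call was not independent of that limit. Hepatic lipase *Lipc* fell to 13.1 ± 5.17 (SD, n = 3) against 33.9 ± 6.16 (SD, n = 3) in control libraries (log2 fold change -1.35, limma adjusted p = 0.000547). The proteoglycan syndecan 1 (*Sdc1*) rose by 1.07 on the log2 scale (limma adjusted p = 3.39e-18), which was 0.95 at the same total and 0.88 after quantile normalization, both short of the limit. The abundant list genes *Lrp1* (0.45), *Hspg2* (-0.11) and *Sel1l* (-0.19) had log2 fold changes within the limit.

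Genes known to respond with *Angptl4* to PPAR receptors or to hypoxia were examined next. Of 8 tested PPAR targets 1 rose (12.5%, background 11.7%) and 0 fell (background 10.6%), with a median log2 fold change of -0.32. The gene that rose was *Fabp4*, a fatty acid carrier, which had at most 3 reads in every control library and 1447.7 ± 63.4 (SD, n = 3) normalized counts with dexamethasone. This mean was 493-fold the value of 3 reads in a control library, and so few control reads leave the exact ratio uncertain. *Pdk4* (0.63), *Plin2* (0.60) and *Cpt1a* (-0.27) had log2 fold changes in both directions within the limit. Of 11 tested hypoxia targets 1 rose and 1 fell (9.09% each, backgrounds 11.7% and 10.6%), with a median of -0.31. The glucose transporter gene *Slc2a1* rose by 1.30 and *Ndrg1* had log2FC = -1.65 (limma adjusted p = 6.74e-20 and 2.94e-20), whereas *Vegfa* (0.78), *P4ha1* (-0.56), *Ero1a* (-0.47) and *Ddit4* (-0.81) stayed within the limit.

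None of the 7 tested regulators of *Angptl4* passed both limits in limma (background 22.3%). By adjusted p-value alone 1 was higher (background 37.2%) and 4 were lower (background 35.2%). The glucocorticoid receptor gene *Nr3c1* had 20137 ± 628 (SD, n = 3) and 10607 ± 219 (SD, n = 3) normalized counts. Its log2FC of -0.92 (limma adjusted p = 1.46e-17) fell short of the limit but passed it at the same total (-1.04) and after quantile normalization (-1.12). *Hif1a*, the oxygen-regulated subunit of the hypoxia-inducible transcription factor, had log2FC = -0.77 (limma adjusted p = 3.46e-16). *Arnt* and *Rxra*, the dimer partners of hypoxia-inducible factors and of PPAR receptors, had log2FC values of -0.34 and -0.28. *Pparg*, which encodes PPAR gamma, had 21.8 ± 4.14 (SD, n = 3) and 21.6 ± 2.99 (SD, n = 3) normalized counts (log2FC = -0.0012, limma adjusted p = 0.997), and its sign changed under 4 of the alternatives. The PPAR gene *Ppard* was more abundant, with 3826 ± 154 (SD, n = 3) and 4334 ± 261 (SD, n = 3) normalized counts (log2FC = 0.18, limma adjusted p = 0.000848). *Ppara* had at most 1 read in every library.

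Markers of cells that carry these genes elsewhere were set beside them. The background for their counts is that of all tested genes, of which 11.7% rose and 10.6% fell. The summed level of the endothelial markers in the table was 6532 to 6790 normalized counts in control and 8535 to 9685 in dexamethasone libraries. Most of this sum was *Flt1* (log2FC = 0.30) and *Vwf* (log2FC = 0.76), neither past the fold limit, while *Esam* (1.20) and *Tal1* (1.003, at the limit) rose. *Mmrn2* had a log2FC of -0.74 (limma adjusted p = 0.0778), and *Cdh5* and *Ecscr* had at most 3 reads in every library. Of 9 markers of mural cells, a known source of *Angpt1*, 8 were tested, of which 0 rose and 3 fell (*Acta2*, *Mcam* and *Notch3*). Their sum was 172907 to 182340 normalized counts in control and 43849 to 47844 in dexamethasone libraries. The difference between these sums was mostly that of *Acta2*, which had 12449 ± 493 (SD, n = 3) normalized counts with dexamethasone. Other mural markers lay elsewhere, with log2FC values of -0.08 for *Pdgfrb*, 0.43 for *Cspg4*, 0.17 for *Des* and 0.72 (limma adjusted p = 0.0511) for *Rgs5*. *Myh11* was lower but short of the fold limit (log2FC = -0.89, limma adjusted p = 0.0102). By adjusted p-value alone 2 of the 8 mural markers were higher (background 37.2%) and 4 lower (background 35.2%). Among 8 marrow stromal markers 6 were tested, 2 rose and 2 fell. *Kitl* rose to 14444 ± 79.2 (SD, n = 3) against 1949 ± 15.3 (SD, n = 3) normalized counts in control libraries and *Lepr* to 288 ± 11.8 (SD, n = 3) against 86.5 ± 2.37 (SD, n = 3), while *Il7* (log2FC = -1.91) and *Vcam1* (log2FC = -1.001, at the limit) fell. Their sum was 25904 to 28024 in control and 32098 to 32464 in dexamethasone libraries, and *Ebf3* had at most 3 reads in every library. For adipocytes, 2 of 7 markers could be tested and neither rose nor fell, with sums of 470.1 to 504 and 352 to 392. By adjusted p-value alone 0 were higher (background 37.2%) and 2 lower (background 35.2%), *Plin4* (log2FC = -0.72) and *Lipe* (log2FC = -0.25). The untested *Cfd*, with a mean of 9.72, had 1, 4 and 3 reads in control and 19, 14 and 15 reads in dexamethasone libraries. Of 14 hematopoietic markers 6 were tested, 1 rose and 3 fell, with sums of 1495 to 1568 and 1114 to 1153. These sums were mostly *Lyz2*, which fell to 351 ± 13.6 (SD, n = 3) against 996 ± 9.70 (SD, n = 3), and *Itga2b* (log2FC = 0.10). *Cd53* rose to 283 ± 24.8 (SD, n = 3) against 15.7 ± 3.99 (SD, n = 3), and *Kit* had at most 3 reads in every library. *Coro1a* fell to 6.79 ± 4.95 (SD, n = 3) against 20.4 ± 3.59 (SD, n = 3), and *Laptm5* to 6.41 ± 2.95 (SD, n = 3) against 19.2 ± 4.53 (SD, n = 3). Both reached the limit for testing only through the control libraries. By adjusted p-value alone 1 of the 6 hematopoietic markers was higher (background 37.2%) and 4 lower (background 35.2%). Of 7 tendon and cartilage markers 6 were tested, 2 rose (*Col2a1* and *Sox9*) and 3 fell (*Comp*, *Fmod* and *Scx*). Their sum was 173345 to 185588 normalized counts in control and 94101.5 to 103233 in dexamethasone libraries. Most of it was *Fmod*, which fell to 73005 ± 3411 (SD, n = 3) against 172898 ± 6490 (SD, n = 3). *Sox9* rose to 17406 ± 1156 (SD, n = 3) against 4609 ± 246 (SD, n = 3). The part of these cell types in the changes of the 10 genes was not tested.

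The genes whose profile over the 6 libraries lay closest to that of *Angptl2*, by the root mean square distance of centred log2 values, were *Nup62* (0.0239), *Fmnl2* (0.0242) and *Ubash3b* (0.0267). Closest to *Angptl6* were *Kdm6b* (0.0470), *Lifr* (0.0486) and *1700029J07Rik* (0.0489). These distances rest on 6 libraries of 2 groups and describe likeness of profile alone.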

How the data were processed

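The submitters' processing notes and the study's methods name bcl2fastq, STAR 2.7.10a for alignment and counting of reads per gene, DESeq2 1.36.0 for normalization and the build GRCm39. The annotation release and the strand setting are not given in the sources used here. What was deposited is a signal: the read count of each gene, which the authors divided by a size factor per library (normalized counts). Within a tolerance of 0.01 reads, 100% of the values were whole multiples of the value of 1 read, so read counts were recovered. Of 29616 genes, 28087 had a symbol in GENCODE M21 (GRCm38), which was used for symbols, exon lengths and overlaps. From this older build only chromosomes and RefSeq promoter intervals are given. All 6 columns were used.

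Log2(normalized count + 1) was compared with limma 3.58.1 (lmFit, eBayes with trend, R 4.3.3) where the mean was 10 or more, with Benjamini-Hochberg adjustment. With 3 against 3 libraries an exact permutation test of a single gene cannot go below 0.1, and none was run. Fold changes on this scale understate those of low genes. Replicates differed by more than sampling noise (chi-square per degree of freedom 3.52 to 29.6). Members, lists and tests were chosen with earlier results of these data known. Named are all members and host genes, the 4 list genes with the highest mean, the largest rise and fall per list, defining markers and the 3 most similar genes, except 1 list gene that is not reported here. *Dok2*, *Nos3*, *Ptprb*, *Itgb3*, *Rasa1*, *Foxo1*, *Pparg*, *Ppard*, *Ppara*, *Lpl*, *Ecscr*, *Ebf3*, *Kit*, *Acta2*, *Mcam*, *Notch3*, *Pdgfrb*, *Cspg4*, *Des*, *Myh11*, *Flt1*, *Vwf*, *Esam*, *Tal1*, *Mmrn2*, *Kitl*, *Il7*, *Vcam1*, *Lyz2*, *Itga2b*, *Cd53*, *Spp1*, *Dmp1* and *A230050P20Rik* were added after their values were seen. So were *Sox18*, *Erg*, *Robo4*, *Lipe*, *Plin4*, *Cfd*, *Coro1a*, *Laptm5*, *Col2a1*, *Sox9*, *Comp*, *Fmod*, *Scx* and *Gm37802*.

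Results were recomputed with pseudocounts of 0.5 and 5, with no filter and with minimum means of 1 and 100, at equal totals, after quantile normalization, with no limma trend, on recovered reads in edgeR 4.0.16 and in DESeq2 1.42.0, with a replicate block, without the fold change limit, and omitting each library. The methods were tested on simulated data.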

Additional observations from a re-analysis of the deposited data

How the results depend on the processing

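*Angpt2*, *Angptl2* and *Angptl6* passed both limits under all 17 alternatives, with log2 fold changes of 1.42 to 1.63, 1.22 to 1.38 and -1.47 to -1.28. *Angpt4* (0.68 to 0.84) passed only the limit on the adjusted p-value under the same alternatives, and *Tek* (adjusted p 0.103 to 0.527), *Angptl4* (0.0894 to 0.787) and *Angptl7* (0.236 to 0.703) did not pass it in any that tested them. At a mean of at least 100 these last 3 genes were not tested, nor was *Tek* without control replicate 1 or dexamethasone replicate 2. Leaving out each library gave 3 genes of the family past both limits every time. With no filter or a mean of at least 1, 2 of the family were lower, *Angpt1* being added.

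Replicate numbers showed no pairing (correlations of deviations -0.0999, -0.105 and -0.0199), and with the replicate block 3 of the 10 genes passed both limits, as without it. Rescaling to the same total shifted the median of all genes to -0.11.

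Other counts moved as follows. By adjusted p alone, 12645 genes passed in all (72.5% of those tested, 37.2% higher and 35.2% lower). Of 20 tested Tie partners 10 were higher and 6 lower. Of 12 lipase genes 5 were higher and 7 lower, and of 8 PPAR targets 3 were higher and 4 lower. Of 11 hypoxia targets 4 were higher and 6 lower, and of 7 regulators 1 was higher and 4 lower. At a mean of at least 100, 2170 genes passed, with 3 Tie partners lower, and 1 lipase gene higher and 0 lower, since fewer genes were tested. At the same total and after quantile normalization 1 lipase gene was higher and 1 regulator lower, and after the latter 2 hypoxia targets were lower. Without 1 library the lipase genes higher were 1 to 2, *Lipg* not being tested without dexamethasone replicate 1. *Itgav* reversed at the same total (-0.0657) and after quantile normalization (-0.0157). *Pparg* (-0.0012) reversed after quantile normalization (0.107) and without control replicate 3 (0.139), dexamethasone replicate 1 (0.0474) or dexamethasone replicate 3 (0.0565). Where not stated, the cause was not tested. Depth limits what can be said of *Tie1*, *Angpt1*, *Angptl1*, *Tek* and *Angptl7*, each with fewer than 20 reads per library.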
